A study of Homo sapiens with 5 samples.

Results

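The genes described here encode the folding and quality control machinery of the endoplasmic reticulum (ER): 10 chaperones and their cofactors, 3 genes of the lectin chaperone cycle, 6 disulfide and prolyl isomerases, 4 sensors and transcription factors of the unfolded protein response (UPR) and 11 genes of ER-associated degradation (ERAD). They were chosen by symbol from what the proteins are known to do, and all 34 were found among the 25343 gene rows of the count table, of which 33 had enough reads to be tested.
Transcript levels come from 5 stranded mRNA libraries made from SW620, a colon carcinoma cell line of human origin. Every library came from cells of the tet-MUC1shRNA genotype, that is, cells with a tetracycline-inducible short hairpin RNA against the transmembrane mucin gene MUC1. The labels call replicates 1, 2 and 3 of the first group neg (3 libraries) and replicates 1 and 3 of the second pos (2 libraries). They state that cells received vehicle control or doxycycline, but they do not tie either name to a treatment. The dose and time of treatment are not stated in the labels, no library with doxycycline and a control hairpin was analysed, and the labels do not say whether the line is 1 clone.

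Proteins that enter the ER are held by the chaperone BiP (HSPA5), helped by J-domain cofactors and nucleotide exchange factors, while glycoproteins cycle on the lectins calnexin and calreticulin and disulfide isomerases form their cysteine bonds. Proteins that fail to fold are trimmed by the EDEM mannosidases, recognised by the lectins OS9 and ERLEC1 and passed to the membrane ubiquitin ligase SYVN1 with its partner SEL1L for degradation by the proteasome. When unfolded proteins build up, the sensors ERN1, ATF6 and EIF2AK3 start the UPR. Cleaved ATF6 and the spliced form of XBP1 then raise transcription of chaperone and ERAD genes through promoter sequences called ER stress elements. Gene counts show neither the splicing of XBP1 nor the cleavage of ATF6, so only transcript levels are described. In bulk RNA, fewer cells of a kind and less RNA per cell cannot be told apart.

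The ER stress elements are shown first, because they are a sequence feature that several of these genes share. The genes were chosen for functions that include the UPR, which acts through these elements. The share of members with a match is thus not independent of the choice. RefSeq promoter windows (GRCh38.p14), from 250 bases before to 50 bases after each start site, were present for 31 members and were searched on both strands. PDIA3, DERL1 and DERL3 have no entry there. The ER stress element ERSE, which is CCAAT and CCACG with any 9 bases between them, was found in 7 of 31 members (22.6%) and in 25 of all 27305 genes searched (0.0916%). The shorter element ERSE-II, which is ATTGG and CCACG with any 1 base between them, was found in 3 of 31 members (9.68%) and in 19 genes in all (0.0696%). The UPR element core TGACGTGG was in 2 of 31 members (6.45%), HYOU1 and DNAJC10, and in 253 genes in all (0.927%), and the HYOU1 copy overlaps its upstream ERSE-II. A match is a stretch of letters and not a measured binding site. Each match is written in the motif's own direction, with the fixed letters in capitals, for the chaperone, lectin, isomerase, sensor and ERAD genes in turn.
HSPA5 ERSE, from 66 to 48 bases before the start: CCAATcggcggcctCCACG
HSP90B1 ERSE, from 89 to 71 bases before the start, on the other strand: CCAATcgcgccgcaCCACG
HSP90B1 ERSE, from 194 to 176 bases before the start: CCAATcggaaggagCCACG
CRELD2 ERSE, from 80 to 62 bases before the start, on the other strand: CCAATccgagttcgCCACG
HYOU1 ERSE-II, from 79 to 69 bases before the start, on the other strand: ATTGGaCCACG
HYOU1 ERSE-II, from 185 to 175 bases before the start, on the other strand: ATTGGaCCACG
SDF2L1 ERSE-II, from 188 to 178 bases before the start, on the other strand: ATTGGtCCACG
CALR ERSE, from 225 to 207 bases before the start, on the other strand: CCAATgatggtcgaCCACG
CANX ERSE, from 151 to 133 bases before the start: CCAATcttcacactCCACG
PDIA6 ERSE, from 86 to 68 bases before the start: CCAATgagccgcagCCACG
XBP1 ERSE, from 52 to 34 bases before the start: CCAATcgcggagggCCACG
HERPUD1 ERSE-II, from 117 to 107 bases before the start: ATTGGgCCACG

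The promoter of HSPA5 is given at more length, since HSPA5 was among the most abundant members and among those with the smallest p. The stretch lies at chr9:125241383-125241503 on the minus strand (GRCh38.p14), from 160 to 40 bases before the RefSeq start. The capitals mark its ERSE match.
HSPA5 promoter: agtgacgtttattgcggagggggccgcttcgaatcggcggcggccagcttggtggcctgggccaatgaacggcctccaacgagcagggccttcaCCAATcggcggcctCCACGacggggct

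Some traits of the libraries bear on every result. Between 10888704 and 14137678 reads were counted in genes per library. MUC1 had 27 and 13 reads in pos replicates 1 and 3 and 176, 252 and 218 in the neg libraries. All 12 colon epithelial markers checked had at least 10 reads in some library. So did 4 of 9 fibroblast, 4 of 10 leukocyte and 2 of 6 endothelial markers. In these lists 3, 5 and 1 genes had 0 reads everywhere, among them COL1A2 and COL3A1, PTPRC and CD3E, and TEK. The summed level of the 12 epithelial markers was 6119 to 7961 counts per 1000000 normalised counts (CPM) in neg, 7969 in pos replicate 1 and 16513 in pos replicate 3. The summed level was 28.7 to 32.4 CPM in neg and 21.3 and 18 CPM in pos for 9 fibroblast markers, 58.8 to 67.5 and 47.9 and 61 CPM for 10 leukocyte markers, and 4.1 to 5.78 and 1.29 and 2.21 CPM for 6 endothelial markers. Their part in the results was not tested. The pos libraries correlated less with each other (Pearson r = 0.912 across genes, which are not replicates) than neg libraries did (0.983 to 0.993). Long transcripts were under-represented in pos replicate 3: genes of 4000 nt or more had a median log2 ratio to the neg mean of -0.97 there and of -0.19 in pos replicate 1, and genes under 2000 nt had 1.06 and 0.32. For this reason both pos libraries are given separately for each member. A fit with each library's length trend removed is set beside the fit on the counts as deposited. Most genes outside the members are given as group means, behind which the pos libraries can differ. The part of the length trend in the results was not tested beyond that fit.

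The machinery as a whole took a smaller share of the RNA in pos. The 34 genes together held 1.77%, 1.78% and 1.73% of reads in neg replicates 1, 2 and 3. In pos replicate 1 they held 0.753% (exact 95% binomial interval 0.7477 to 0.7574) and in pos replicate 3 they held 0.535% (0.5316 to 0.5394), so the summed share of raw reads was 2.34 and 3.28 times smaller than the neg mean. These intervals cover counting error only. The raw share also moves with what else a library holds: genes with ribosomal protein symbols took 8.46% to 10.1% of reads in neg, 15.3% in pos replicate 1 and 27.3% in pos replicate 3, and their part in the result was not tested. On the TMM-normalised scale used for all other levels the members summed to 16274, 15810 and 15148 CPM in neg and to 7422 and 7605 CPM in pos replicates 1 and 3, which was 2.12 and 2.07 times below the neg mean. On that scale pos replicate 3 was not the lower of the pos libraries. Of the 33 tested members 12 were lower in pos (36.4%; edgeR's quasi-likelihood test, Benjamini-Hochberg adjusted p under 0.05 over all 13604 tested genes), where 4.13% of all tested genes were lower. In the same test 0 members were higher, against 5.06% of all tested genes. At an unadjusted p under 0.05 edgeR had 22 members lower, against 15.5% of all genes, and 0 higher, against 19.1%, while DESeq2 called 0 higher against 13.2%.

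**Figure D1:**
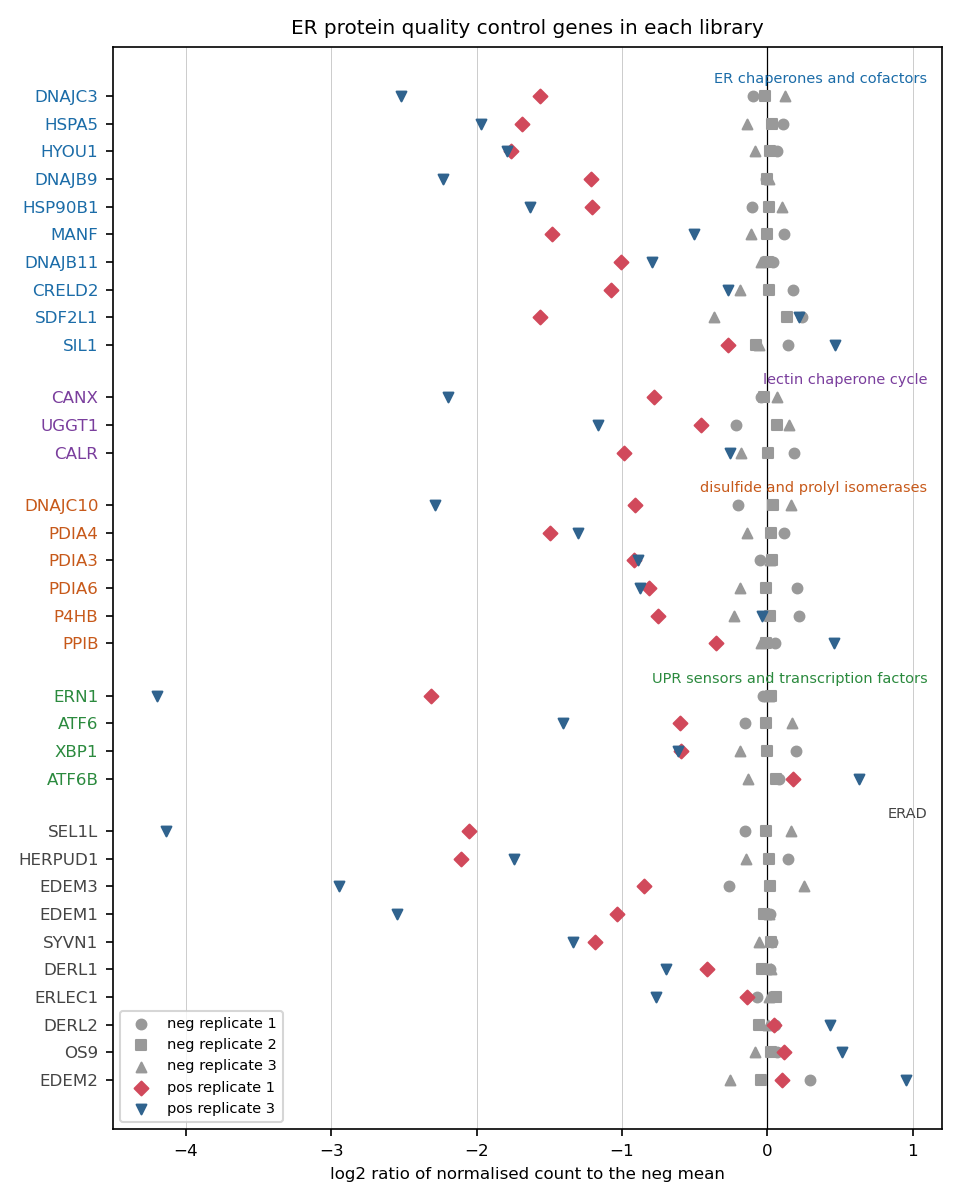
Log2 ratio of the normalised count to the mean of the neg libraries (horizontal axis) for the 33 tested members, grouped by role, with 1 symbol per library (grey: neg replicates; red diamonds: pos replicate 1; blue triangles: pos replicate 3). For 25 members both pos symbols lie below all grey symbols, ERN1 and SEL1L reach below -4 in pos replicate 3, and ATF6B and OS9 lie above.

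The median log2 fold change of the members was -0.90, beside -0.05 over all tested genes. In 25 of 33 members (75.8%) both pos libraries lay below every neg library, where 29.3% of all tested genes did. In 2 members, ATF6B and OS9, both lay above, where 26.7% of all genes did. DESeq2 called 18 members lower, including all 12 called by edgeR, against 10.0% of all genes. With the length trend removed 21 were lower, again including the 12, against 6.78% of all genes, and 0 were higher, against 7.12%. All edgeR calls depend on having 3 neg libraries. Without neg replicate 1, 2 or 3 the adjusted test called 0 members and 0 of all tested genes, in either direction. At an unadjusted p under 0.05 edgeR had 17, 15 and 16 members lower in those fits (9.59%, 8.38% and 8.71% of all genes). DESeq2 called 13, 11 and 11 members lower in those fits (3.69%, 2.75% and 2.52% of all genes). Without pos replicate 1 edgeR called 23 members lower and 6 higher, where 32.1% and 30.9% of all genes were, and without pos replicate 3 it called 24 lower and 0 higher, where 17.0% and 14.4% were. Those fits measure a single pos library, which is assumed to vary like neg.

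Of the chaperones and their cofactors 6 of 10 were lower and 0 higher, against 4.13% and 5.06% of all tested genes. Their median log2 fold change was -1.16. The central chaperone HSPA5 (chromosome 9, 125234853 to 125241382, minus strand, GRCh38, GENCODE 44) had 2378, 2254 and 2006 CPM in neg replicates 1, 2 and 3, and 684 and 563 CPM in pos replicates 1 and 3. Both pos libraries were far below the lowest neg library. The mean went from 2213 ± 189 (SD, n = 3) to 623 ± 85.7 CPM (SD, n = 2), a 3.55-fold fall (log2 fold change -1.83, SE 0.23, edgeR adjusted p = 0.0316). Its exchange factor HYOU1, which releases nucleotide from BiP, had 876, 849 and 789 CPM in neg and 247 and 242 CPM in pos. The pos pair of HYOU1 differed by less than any pair of neg libraries, and the log2 fold change was -1.78 (SE 0.20, edgeR adjusted p = 0.0270). The ER paralog of HSP90, HSP90B1, which folds integrins and Toll-like receptors, had 2065, 2233 and 2375 CPM in neg and 960 and 716 CPM in pos. This was a 2.65-fold fall (log2 fold change -1.41, SE 0.24, edgeR adjusted p = 0.0381).

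All 3 J-domain cofactors in this group, which hand clients to BiP, were lower too, to different degrees in the pos libraries. DNAJC3, also known as an inhibitor of the kinase EIF2AK3, had 253, 268 and 294 CPM in neg and 91.7 and 47.2 CPM in pos (log2 fold change -1.97, SE 0.33, edgeR adjusted p = 0.0373). DNAJB9, a cofactor that binds ERN1 and misfolded clients, had 45.0, 45.1 and 45.6 CPM in neg and 19.5 and 9.59 CPM in pos (-1.63, SE 0.34, edgeR adjusted p = 0.0446). DNAJB11, an abundant soluble cofactor, had 290, 282 and 274 CPM in neg and 140 and 162 CPM in pos (-0.90, SE 0.18, edgeR adjusted p = 0.0445). Neg and pos values did not overlap for any of these cofactors, where 29.3% of all tested genes lay below neg without overlap. The fall of DNAJC3 and DNAJB9 was deeper in pos replicate 3, and the calls of both ended when libraries were scaled by size alone (edgeR adjusted p = 0.0541 and 0.0704). DNAJB11, whose transcript is 1640 nt long, had a log2 fold change of -1.40 with the length trend removed. DNAJB11 overlaps exons of an unnamed coding gene on the same strand and of TBCCD1 on the other, so part of its reads is uncertain.

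The remaining chaperone genes have short transcripts and did not pass the test, and their pos libraries stood apart from each other. SDF2L1, a partner of DNAJB11 encoded by an 825 nt transcript, had 66.5, 61.9 and 43.8 CPM in neg, 19.1 CPM in pos replicate 1 and 65.8 CPM in pos replicate 3. So pos replicate 1 was below all neg libraries and pos replicate 3 inside their range (log2 fold change -0.44, SE 0.52, edgeR adjusted p = 0.562). The secreted stress protein MANF had 275, 253 and 235 CPM in neg and 90.9 and 178 CPM in pos, without overlap (-0.92, SE 0.32, edgeR adjusted p = 0.105). CRELD2, another secreted stress protein, had 43.3, 38.6 and 33.7 CPM in neg and 18.1 and 31.7 CPM in pos (-0.63, SE 0.30, edgeR adjusted p = 0.187). All 3 passed once the length trend was removed, at log2 fold changes of -1.60 for SDF2L1 (edgeR adjusted p = 0.0194), -1.91 for MANF (0.00415) and -1.29 for CRELD2 (0.0121). SIL1, the other nucleotide exchange factor of BiP, had 30.3, 25.9 and 26.3 CPM in neg and 22.7 and 37.7 CPM in pos. The pos libraries of SIL1 lay on either side of neg, and its log2 fold change was 0.14 (SE 0.27, edgeR adjusted p = 0.736).

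**Figure D2:**
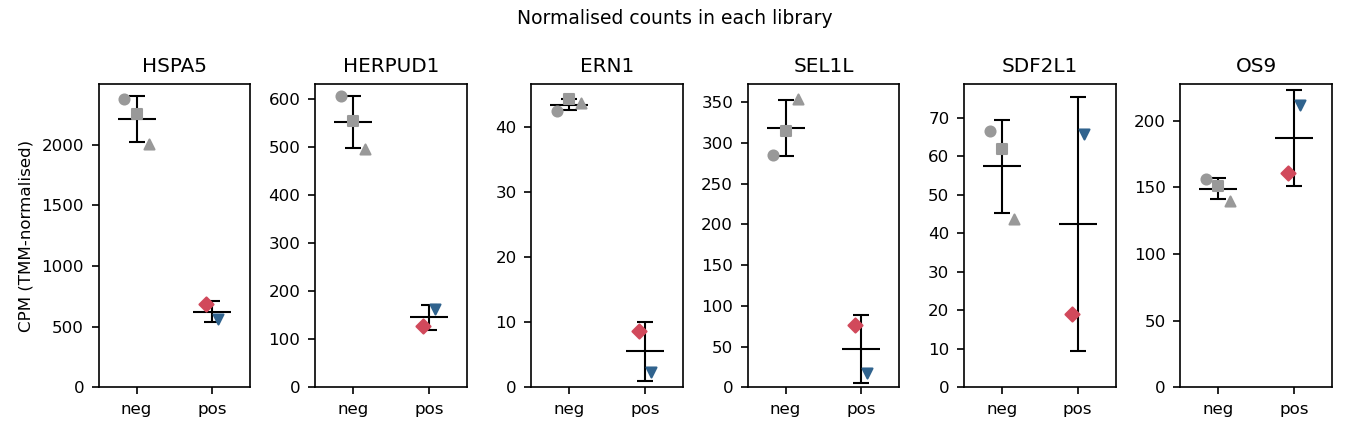
TMM-normalised CPM (vertical axes, each from 0) of 6 members in each library, with the group mean and SD as black bars (grey: neg replicates 1, 2 and 3; red diamond: pos replicate 1; blue triangle: pos replicate 3). HSPA5, HERPUD1, ERN1 and SEL1L do not overlap between groups, SDF2L1 is low only in pos replicate 1 at 19.1 CPM, and OS9 is slightly higher in pos.

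In the lectin chaperone cycle 0 of 3 genes passed in edgeR, at a median log2 fold change of -0.78. In 3 of 3 both pos libraries lay below every neg library, where 29.3% of all tested genes did. At an unadjusted p under 0.05 edgeR had 2 of them lower (15.5% of all genes), and DESeq2 called CANX alone (10.0% of all genes). The membrane lectin calnexin (CANX) had 1900, 1929 and 2053 CPM in neg, 1139 CPM in pos replicate 1 and 428 CPM in pos replicate 3 (log2 fold change -1.32, SE 0.43, edgeR adjusted p = 0.0941; DESeq2 adjusted p = 0.0101). Its soluble counterpart calreticulin (CALR) had 1716, 1515 and 1332 CPM in neg and 764 and 1263 CPM in pos (-0.59, SE 0.29, edgeR adjusted p = 0.203). The pos replicate that was lower thus differed between these lectins, whose transcripts are 4915 and 1901 nt long. Once the length trend was removed their log2 fold changes were close, at -1.01 for CANX (edgeR adjusted p = 0.0395) and -1.0 for CALR (0.0159). The pos libraries still differed in opposite ways in that fit. Without pos replicate 1 CANX was at -1.45 and CALR at -0.86, and without pos replicate 3 they were at -0.67 and -1.15. UGGT1, the enzyme that reglucosylates unfolded glycoproteins for another round, has a transcript of 10761 nt and had 135, 165 and 174 CPM in neg and 114 and 70.0 CPM in pos. Its log2 fold change of -0.78 (SE 0.28, edgeR adjusted p = 0.111) became 0.08 with the length trend removed.

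Among the isomerases 2 of 6 were lower and 0 higher, against 4.13% and 5.06% of all tested genes (median log2 fold change -0.88). PDIA4, a large disulfide isomerase, had 869, 819 and 730 CPM in neg and 285 and 326 CPM in pos (log2 fold change -1.40, SE 0.21, edgeR adjusted p = 0.0336). PDIA3, the isomerase that works with calnexin and calreticulin on glycoproteins, had 761, 806 and 797 CPM in neg and 418 and 425 CPM in pos (-0.90, SE 0.19, edgeR adjusted p = 0.0447). Both were clearly separated between groups and nearly equal in the pos libraries. A processed copy, PDIA3P1, had 28 to 110 reads per library against at least 4032 for PDIA3. PDIA6, which acts on ERN1 as well as on clients, had 309, 267 and 236 CPM in neg and 153 and 146 CPM in pos and missed the threshold (-0.85, SE 0.20, edgeR adjusted p = 0.0535; DESeq2 adjusted p = 0.00965).

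The other isomerases were less uniform. P4HB, the founding disulfide isomerase, had 1700, 1484 and 1246 CPM in neg and 867 and 1427 CPM in pos, so that pos replicate 3 lay within the neg range (log2 fold change -0.36, SE 0.30, edgeR adjusted p = 0.401). DNAJC10, a reductase that opens disulfides before degradation, had 141, 166 and 181 CPM in neg and 86.1 and 33.1 CPM in pos (-1.45, SE 0.42, edgeR adjusted p = 0.0773; DESeq2 adjusted p = 0.00514). Its canonical transcript is the longest among the members at 20144 nt, and its log2 fold change was -0.51 with the length trend removed. The prolyl isomerase PPIB, with a transcript of 893 nt, had 249, 239 and 233 CPM in neg and 188 and 329 CPM in pos (0.11, SE 0.27, edgeR adjusted p = 0.797). PPIB changed direction and passed with the length trend removed, at -0.88 (edgeR adjusted p = 0.0180). The direction of PPIB therefore depended on how length was treated.

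Of the 4 sensors and transcription factors, ERN1 fell and the others did not pass the test (median log2 fold change -0.78). ERN1 encodes the kinase and endoribonuclease that splices XBP1 mRNA and sits on chromosome 17 (64039080 to 64130819, minus strand, GRCh38, GENCODE 44). It had 608, 704 and 545 reads in neg and 108 and 22 reads in pos, or 42.5, 44.3 and 43.8 CPM against 8.74 and 2.32 CPM. The exact Poisson 95% interval was 7.17 to 10.6 CPM in pos replicate 1 and 1.45 to 3.51 CPM in pos replicate 3, whereas the lowest interval in neg was 39.2 to 46 CPM. The neg libraries were close together, with an SD of 0.905 CPM, and the fall was 7.75-fold (log2 fold change -2.96, SE 0.55, edgeR adjusted p = 0.0390), the largest among the tested members. The ERN1 transcript is 7895 nt long. The log2 fold change was -2.39 with the length trend removed (edgeR adjusted p = 0.0113), and the call ended when libraries were scaled by size alone (edgeR adjusted p = 0.0587).

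XBP1 encodes the transcription factor whose mRNA ERN1 splices. It had 336, 293 and 258 CPM in neg and 195 and 192 CPM in pos, with no overlap (log2 fold change -0.61, SE 0.20, edgeR adjusted p = 0.0941). It passed with the length trend removed, at -1.02 (edgeR adjusted p = 0.0247). The membrane-bound transcription factor ATF6 had 100, 111 and 126 CPM in neg and 73.7 and 42.2 CPM in pos (-0.95, SE 0.29, edgeR adjusted p = 0.0829; DESeq2 adjusted p = 0.0237). Its relative ATF6B, a weaker activator, had 62.2, 61.4 and 53.6 CPM in neg and 66.5 and 91.3 CPM in pos, both above neg (0.42, SE 0.22, edgeR adjusted p = 0.218). The transcripts differ in length, 7470 nt for ATF6 and 2626 nt for ATF6B. With the length trend removed ATF6 was at -0.28 and ATF6B at 0.29, neither past the threshold (edgeR adjusted p = 0.207 and 0.269). ATF6B overlaps exons of TNXB on the same strand, so part of its reads is uncertain.

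ERAD genes ranged from several-fold falls to values at or above the neg level. Of 10 tested genes 3 were lower and 0 higher, against 4.13% and 5.06% of all tested genes. Their median log2 fold change was -0.90 in a range from -2.75 to 0.57. SEL1L, the adaptor that holds the ubiquitin ligase complex together (chromosome 14, 81471547 to 81533853, minus strand, GRCh38, GENCODE 44), had 285, 315 and 354 CPM in neg, 76.4 CPM in pos replicate 1 and 17.9 CPM in pos replicate 3. This was a 6.72-fold fall (log2 fold change -2.75, SE 0.62, edgeR adjusted p = 0.0490). The SEL1L transcript is 7919 nt long, and the log2 fold change was -2.23 with the length trend removed (edgeR adjusted p = 0.0147). The call of SEL1L in the fit on the counts as deposited is a borderline one, since it ended with upper quartile scaling (edgeR adjusted p = 0.0504), with a filter of 5 CPM in 2 libraries (0.0510) and with library size alone (0.0748).

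HERPUD1, the scaffold that recruits substrates and ubiquilins to the ligase, had 605, 553 and 496 CPM in neg and 128 and 164 CPM in pos. The pos values were similar to each other and the fall was 3.78-fold (log2 fold change -1.92, SE 0.23, edgeR adjusted p = 0.0296). The ligase itself, SYVN1, had 154, 153 and 145 CPM in neg and 66.2 and 59.5 CPM in pos (-1.26, SE 0.18, edgeR adjusted p = 0.0326). SYVN1 overlaps exons of FAU on the same strand and of MRPL49 on the other, so part of its reads is uncertain. For both genes the length trend made little difference, with -1.97 and -1.27 once it was removed.

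None of the EDEM family, mannosidases that mark glycoproteins for degradation, passed the test in edgeR. DESeq2 called 2 of the 3 lower, against 10.0% of all genes. EDEM1 had 86.3, 83.8 and 85.8 CPM in neg and 41.6 and 14.5 CPM in pos (log2 fold change -1.60, SE 0.45, edgeR adjusted p = 0.0695; DESeq2 adjusted p = 0.00255). EDEM3 had 43.6, 53.0 and 62.5 CPM in neg and 29.1 and 6.75 CPM in pos (-1.56, SE 0.60, edgeR adjusted p = 0.128; DESeq2 adjusted p = 0.0215). EDEM2, the enzyme that makes the first cut, had 85.9, 68.0 and 58.7 CPM in neg and 74.9 and 135 CPM in pos (0.57, SE 0.31, edgeR adjusted p = 0.240). For EDEM1 and EDEM3 both pos libraries were below neg, while for EDEM2 pos replicate 1 was inside the neg range and pos replicate 3 above it. The transcripts are 6113, 6837 and 1884 nt long for EDEM1, EDEM3 and EDEM2. With the length trend removed the log2 fold changes were -1.16 for EDEM1 (edgeR adjusted p = 0.0289), -1.09 for EDEM3 (0.0763) and 0.14 for EDEM2 (0.640).

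The derlins, membrane proteins that form the exit channel, and the lectins of the ligase complex did not pass the test. DERL1 had 72.4, 70.0 and 72.8 CPM in neg and 53.8 and 44.2 CPM in pos, without overlap (log2 fold change -0.55, SE 0.19, edgeR adjusted p = 0.105). DERL2 had 45.4, 42.0 and 44 CPM in neg and 45.2 and 59.0 CPM in pos (0.25, SE 0.20, edgeR adjusted p = 0.401). DERL3 is the 1 member left untested, with 10, 5 and 2 reads in neg and 0 and 6 reads in pos, and the 0 reads in pos replicate 1 allow a level of up to 0.243 CPM (3 counts). OS9, a lectin that delivers substrates to SEL1L, had 156, 151 and 140 CPM in neg and 161 and 212 CPM in pos, both above neg (0.33, SE 0.20, edgeR adjusted p = 0.285). Its partner lectin ERLEC1 had 99.2, 109 and 105 CPM in neg and 94.5 and 61.4 CPM in pos, both below neg (-0.42, SE 0.24, edgeR adjusted p = 0.255). Scaling by library size alone shifted the median of all genes from -0.05 to -0.41 and put DERL2, OS9 and ATF6B at -0.16, -0.09 and -0.00. Whether these genes lie above or at the neg level therefore depended on the scaling.

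**Figure D3:**
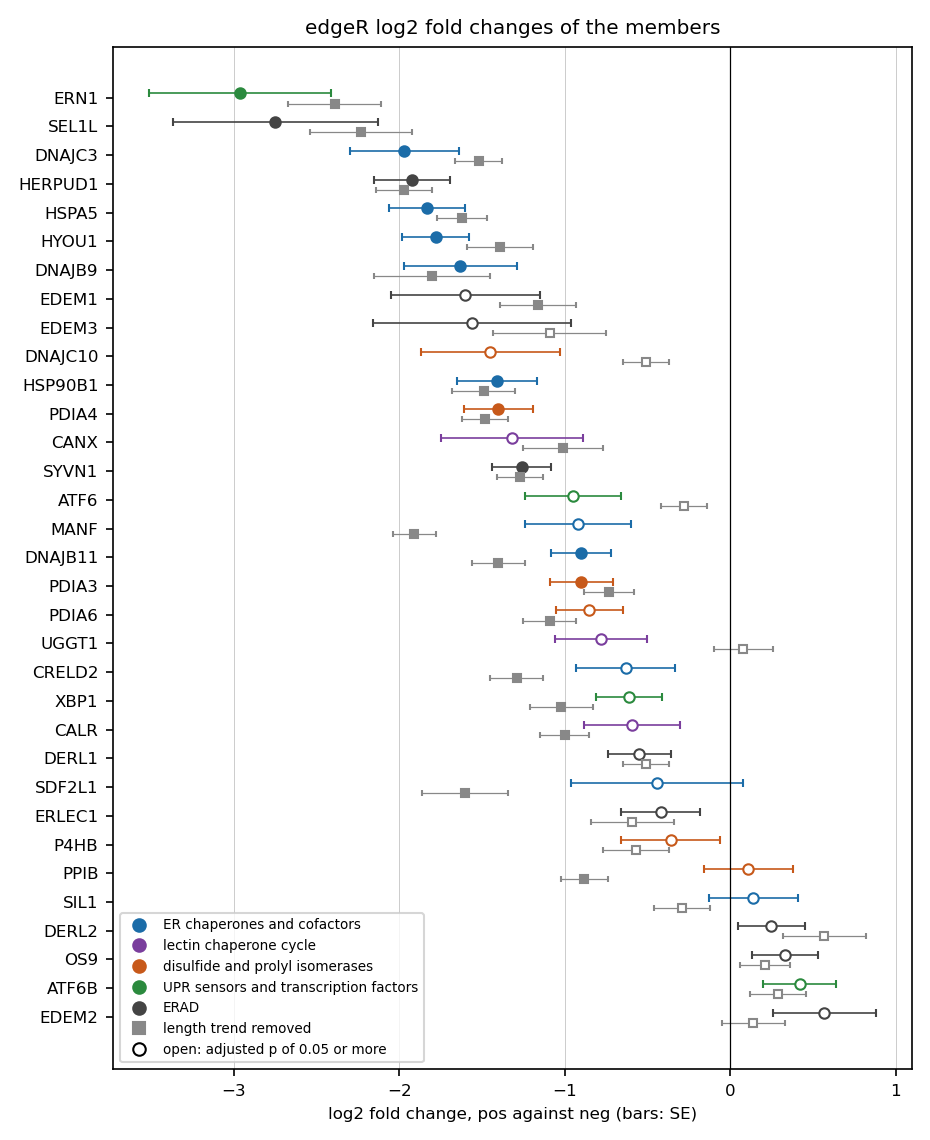
Log2 fold change of pos against neg with its SE (horizontal axis) for each tested member, from the counts as deposited (circles, coloured by role) and with each library's length trend removed (grey squares), filled where the edgeR adjusted p was under 0.05. The 12 filled circles run from ERN1 at -2.96 to -0.90 for DNAJB11 and PDIA3, and 21 grey squares are filled.

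Ratios of reads between related genes within a library do not depend on how libraries are scaled. There were 1.2, 1.23 and 1.19 reads of HSPA5 per read of its cytosolic relative HSPA8 in neg replicates 1, 2 and 3, and 0.162 and 0.116 in pos replicates 1 and 3. SDF2L1 had 2.3, 2.68 and 1.95 reads per read of its relative SDF2 in neg and 0.353 and 0.675 in pos. HSPA8 and SDF2 were themselves higher in pos (log2 fold changes 1.31 and 1.61, edgeR adjusted p = 0.0376 and 0.0390). Both ratios therefore also move with their denominators. HERPUD1 had 13.3, 13.2 and 11.3 reads per read of DERL2 in neg and 2.83 and 2.78 in pos. MANF and PPIB, whose transcripts are almost equally long (909 and 893 nt), were at 1.1, 1.06 and 1.01 in neg and 0.484 and 0.543 in pos. Of 10 pairs computed, the pos ratios lay below every neg ratio in 10, but the pos libraries were closer to each other than to neg (on the log2 scale) only in these 4. In the other 6 pairs pos replicate 3 stood further from neg than pos replicate 1 did. SEL1L had 1.85, 2.06 and 2.44 reads per read of SYVN1 in neg, 1.15 in pos replicate 1 and 0.301 in pos replicate 3. ERLEC1 had 0.637, 0.721 and 0.75 reads per read of OS9 in neg and 0.587 and 0.289 in pos. EDEM3 had 0.508, 0.779 and 1.06 reads per read of EDEM2 in neg and 0.389 and 0.0498 in pos. EDEM1 to EDEM2, ATF6 to ATF6B and DERL1 to DERL2 make up the 6, with pos replicate 3 at 0.107, 0.462 and 0.748 and pos replicate 1 at 0.555, 1.11 and 1.19. With 3 neg and 2 pos libraries there are only 10 splits of the labels. An exact two-sided rank test cannot go below p = 0.2 with these, so no p is given. These pairs were picked with the values known, so the count of 10 of 10 follows in part from the choice. It is not separate support for a fall, and no share over other gene pairs was computed.

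Transcript length went with the contrast between the pos libraries. The difference between the log2 ratios of pos replicates 3 and 1 had a Spearman correlation with length of -0.81 across the 33 members and -0.60 across 13258 tested genes, as a description across genes that share the same libraries. The correlation of the log2 ratio itself with length was -0.19 in pos replicate 1 and -0.72 in pos replicate 3 for the members, and -0.31 and -0.66 for all those genes. Of the 9 members under 2000 nt 1 was lower (11.1%, against 1.02% of all genes of that length), with median log2 ratios of -0.99 in pos replicate 1 and -0.26 in pos replicate 3, where all tested genes of that length had 0.32 and 1.06. Of the 13 members from 2000 to 4000 nt 7 were lower (53.8%), against 3.53% of all genes of that length, and their medians were -0.91 and -0.89. Of the 11 members of 4000 nt or more 4 were lower (36.4%, against 6.93% of all genes of that length), with medians of -0.91 and -2.29, where all genes of that length had -0.19 and -0.97. In each length class and both pos libraries the median of the members was thus below that of all genes.

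**Figure D4:**
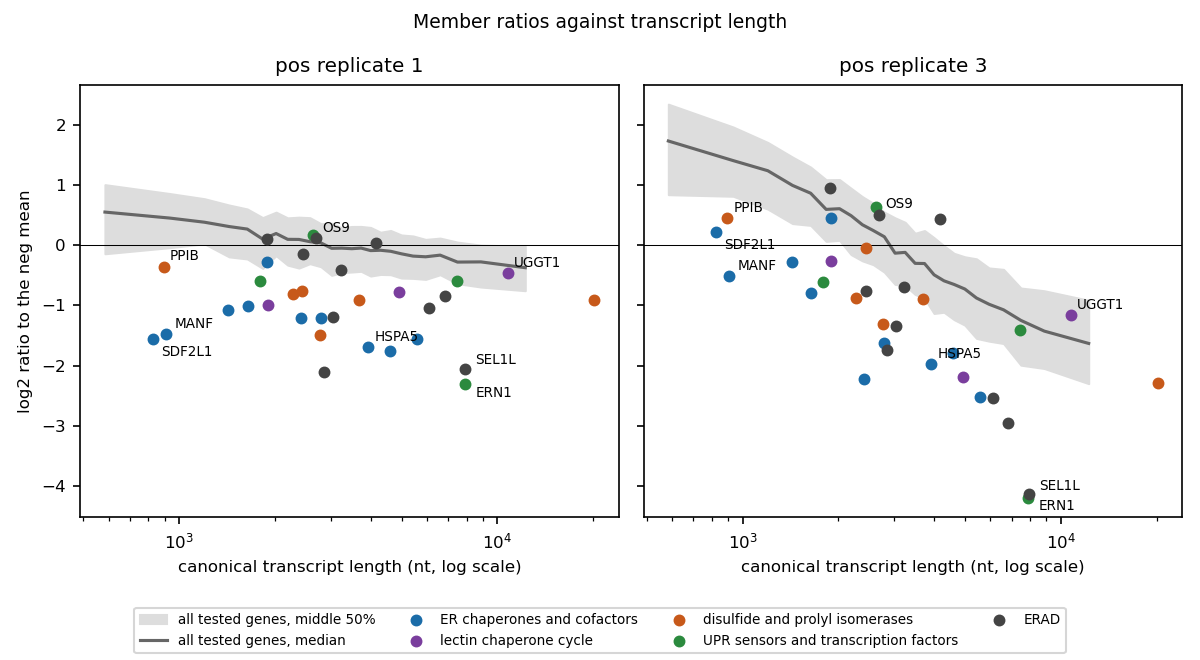
Log2 ratio to the neg mean (vertical axis) against canonical transcript length (horizontal log axis) for the 33 tested members, coloured by role, in pos replicate 1 (left) and pos replicate 3 (right), over the median and middle 50% of all tested genes in 25 length bins (grey). SDF2L1 and MANF lie below the grey band in both panels, at -1.56 and -1.48 on the left and 0.22 and -0.51 on the right, and SEL1L and ERN1 lie furthest below it on the right.

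The members with an exact ER stress element match in the promoter window can be set beside those without such a match. Of the 10 members with an ERSE or ERSE-II match 4 were lower (HSPA5, HSP90B1, HYOU1 and HERPUD1), with a median log2 fold change of -1.09 in a range of -1.92 to -0.44. Of the 21 members with a promoter entry and no match 7 were lower, with a median of -0.92 in a range of -2.96 to 0.57. Among all tested genes 4.13% were lower. With the length trend removed 10 of 10 and 10 of 21 were lower, against 6.78% of all genes, at medians of -1.34 and -0.88. The genes with a match thus all had negative log2 fold changes in both of these fits, although SDF2L1 was above neg in pos replicate 3 taken alone (log2 ratio 0.22). The 6 members with positive log2 fold changes had no match in the window. ERN1 and SEL1L, the members with the largest falls, had no match either. The difference between these groups of members was not tested.

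In the neg libraries the members spanned a wide range of levels. Per kilobase of canonical transcript and scaled to a total of 1000000 in each library (TPM), HSP90B1 (1919 ± 269, SD, n = 3) and CALR (1903 ± 105) were highest and did not differ beyond their spread. P4HB (1439 ± 121) and HSPA5 (1345 ± 37.3) followed, also within their spread, and then CANX (956 ± 106). The sensors were far lower, with ATF6 at 36.1 ± 6.66 and ERN1 at 13.2 ± 1.15, while XBP1 stood at 392 ± 24. Among ERAD genes HERPUD1 (460 ± 13.6) was the highest and DERL3 (0.293 ± 0.189) the lowest.

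Other genes of the pathway are taken from lists chosen by known function. Of 28 tested ER redox and folding enzymes outside the members 2 were lower, against 4.13% of all genes, and 2 higher, against 5.06%. Their median log2 fold change was -0.03. With the length trend removed 8 were lower, against 6.78% of all genes, and 1 higher, against 7.12%, at a median of -0.10. The lower genes were the calnexin relative CLGN, from 12.3 ± 0.342 to 1.85 ± 0.215 CPM (log2 fold change -2.73, SE 0.26, edgeR adjusted p = 0.0261), and the prolyl isomerase FKBP9, from 603 ± 35.7 to 240 ± 26.2 CPM (-1.33, SE 0.20, edgeR adjusted p = 0.0339). SDF2 was higher, from 24.8 ± 3.58 to 75.7 ± 30.7 CPM (1.61, SE 0.30, edgeR adjusted p = 0.0390), as was the peroxiredoxin PRDX4 (1.22, edgeR adjusted p = 0.0464), named after its value was seen. Of 10 glycan trimming enzymes 0 passed in edgeR. At an unadjusted p under 0.05 edgeR had 2 of them lower, against 15.5% of all genes, and 1 higher, against 19.1%. DESeq2 called 1 lower, against 10.0%. The median of those enzymes was -0.13.

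Other proteins ubiquitinate ERAD substrates and pull them out of the membrane. Of 27 tested genes 1 was lower, against 4.13% of all genes, and 1 higher, against 5.06%, with a median log2 fold change of 0.08. These were the partner subunits of the VCP extraction complex: NPLOC4 fell from 114 ± 8.27 to 52.8 ± 1.95 CPM (-1.11, SE 0.19, edgeR adjusted p = 0.0381) and UFD1L rose from 64.2 ± 8.84 to 158 ± 56.1 CPM (1.30, SE 0.27, edgeR adjusted p = 0.0453). The transcript of NPLOC4 is 4381 nt long and that of UFD1L 1791 nt. Both kept their direction and passed with the length trend removed, at -0.77 and 0.83.

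Of 25 tested genes of the EIF2AK3 (PERK) branch and UPR processing 3 were lower, against 4.13% of all genes, and 0 higher, against 5.06%. Their median was -0.45. At an unadjusted p under 0.05 edgeR had 8 lower, against 15.5% of all genes, and 3 higher, against 19.1%. DESeq2 called 5 lower, against 10.0%, and 1 higher, against 13.2%. With the length trend removed 8 were lower, against 6.78% of all genes, and 0 higher, against 7.12%. The lower genes were CREB3L1, an ER-bound relative of ATF6 (10.6 ± 0.330 to 2.05 ± 0.0712 CPM, log2 fold change -2.36, SE 0.25, edgeR adjusted p = 0.0263), the secretory cell transcription factor and XBP1 target BHLHA15 (10.9 ± 2.32 to 2.68 ± 1.28 CPM, -2.04, SE 0.40, edgeR adjusted p = 0.0419) and ATF3 (61.4 ± 8.25 to 24 ± 7.96 CPM, -1.36, SE 0.28, edgeR adjusted p = 0.0448). The sensor EIF2AK3 had 27.8, 26.4 and 30.1 CPM in neg and 20.0 and 2.42 CPM in pos, both below neg and pos replicate 3 far lower than pos replicate 1 (-1.31, SE 0.76, edgeR adjusted p = 0.256). ATF4, whose protein is raised by translation in this branch, had 1064, 914 and 843 CPM in neg and 780 and 1508 CPM in pos (0.28, SE 0.32, edgeR adjusted p = 0.546). The apoptosis-linked factor DDIT3 had 101, 89.6 and 79.8 CPM in neg and 33.1 and 70.3 CPM in pos (-0.80, SE 0.35, edgeR adjusted p = 0.161), and it passed with the length trend removed (-1.82, edgeR adjusted p = 0.00564).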

How the data were processed

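The authors deposited 1 count table with a row per gene symbol and a column for each of 5 libraries, from reads aligned with STAR per the labels' protocols. CASAVA 1.8.2, STAR 2.5.2b, DESeq2 1.24.0 and hg19 are named in the submitters' processing notes, while the labels' protocol names GRCh38. How reads were assigned to genes, and whether by strand, is not given in the sources used here. Without strand, reads of overlapping genes cannot be told apart, and 14 members share exon positions with a coding gene on the other strand and 3 with one on the same strand.

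Groups were taken from the titles. The 92 spike-in rows, at 0 throughout, were left out. With R 4.3.3 and edgeR 4.0.16, filterByExpr set the filter (at least 10 counts, total at least 15), TMM the scaling, and glmQLFit with glmQLFTest the two-sided test, at an adjusted p of 0.05. SE was taken as log2 fold change over the root of F. CPM are TMM-normalised. Library ratios use log2 of the count plus 0.5. At these depths 3 counts were 0.189 to 0.316 CPM. The labels do not say that libraries came from separate cultures beyond triplicate culture, so p-values measure the spread between these libraries, which may be technical. Replicates differed by more than sampling noise (chi-square per degree of freedom 6.02 to 22.4 for neg, 152 for pos).

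Transcript lengths and gene positions are those of GENCODE 44 (GRCh38) canonical transcripts, since the authors' build is ambiguous. The length trend was each library's lowess curve (span 0.3) of log2 CPM (prior count 2) on log2 length, removed as offsets. Alternatives were DESeq2 1.42.0, limma-voom (limma 3.58.1), other scalings and filters, the replicate block and leaving out each library. DESeq2 without each neg library was added after the data were seen. The edgeR step was tested on simulated data.

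The members, lists and tests were chosen with earlier results of these data known. All members are named. From each list of other genes the 3 with the smallest p past the threshold are named, and EIF2AK3, ATF4, DDIT3 and HSPA8 whatever their p. PRDX4 and DNAJB4, also past the threshold, were named outside this rule.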

Additional observations from a re-analysis of the deposited data

How the results depend on the processing

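The count of 12 lower members was 10 to 12 with other scalings, filters or limma-voom, 18 with DESeq2, 21 with the length trend removed and 2 with the replicate block (ERN1 and SEL1L; 79 of all genes lower), or 12 with the block and the length trend removed. Leaving out 1 neg library gave 0 lower members in edgeR, and 0 of all tested genes were called in those fits. Without pos replicates 1 and 3 the counts were 23 and 24, where 32.1% and 17.0% of all genes were lower, and with the length trend removed 25 and 27, against 23.9% and 19.2%. Those fits with 1 pos library assume that it varies like neg, and their calls measure that library. The count of 0 higher members became 6 without pos replicate 1, against 30.9% of all genes, and 3 with length accounted for as well, against 27.8%. The labels do not say what a shared replicate number means. Deviations from the group means correlated at -0.379 for number 1 and -0.384 for number 3. With 2 pos libraries the pos deviations are mirror images, so these values cannot decide whether the numbers pair the libraries. The median of the members was -0.87 with DESeq2 or its size factors, -0.93 with upper quartile scaling, -1.29 with library size only, -1.09 with the length trend removed and -1.10 with the block as well, and -1.20 to -0.84 with 1 library left out (-0.95 to -0.84 without the length step, and -0.88 to -0.86 for DESeq2 with 1 neg library left out). With library size only 8 of the 12 calls were kept, without DNAJB9, DNAJC3, ERN1 and SEL1L.

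The signs of 8 members turned. SIL1 was at -0.31 with library size only, -0.29 with the length trend removed (-0.34 with the block, -0.15 and -0.44 without pos replicates 1 and 3) and -0.30 to 0.50 with 1 library left out. PPIB was at -0.35, -0.88 (-0.89, -0.91 and -0.77) and -0.38 to 0.50 in the same order. UGGT1 was at 0.08 with the length trend removed, 0.12 with the block and 0.30 without pos replicate 1. SDF2L1 was at 0.24 without pos replicate 1, (-1.61 without pos replicate 3), and EDEM2 at -0.08 without pos replicate 3 and the length trend. With library size only, ATF6B was at -0.00, DERL2 at -0.16 and OS9 at -0.09. The cause was not tested. Depth limits only DERL3, with at most 10 reads per library.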

Other observations

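Chaperones outside the ER are given for comparison. Of 31 tested cytosolic and mitochondrial chaperone genes 2 were lower, against 4.13% of all genes, and 2 higher, against 5.06%. Their median log2 fold change was 0.25. With the length trend removed 2 were lower, against 6.78% of all genes, and 3 higher, against 7.12%, at a median of 0.07. The constitutive cytosolic chaperone HSPA8 had 1980, 1827 and 1684 CPM in neg and 4216 and 4843 CPM in pos (log2 fold change 1.31, SE 0.22, edgeR adjusted p = 0.0376). Its cofactor BAG1 rose from 42.1 ± 3.60 to 99.8 ± 31.1 CPM (1.24, SE 0.25, edgeR adjusted p = 0.0420). The mitochondrial relative HSPA9 fell from 1077 ± 26.8 to 457 ± 68.7 CPM (-1.24, SE 0.21, edgeR adjusted p = 0.0381), and the cytosolic cofactor DNAJB4 was lower as well (-1.74, edgeR adjusted p = 0.0456). Of the HSP70 family members given here, the ER and mitochondrial ones were lower in pos and HSPA8 was higher, in both pos libraries. HSPA9 was named for its small p, so these genes do not describe the family or its compartments. The transcripts of HSPA5, HYOU1, HSPA9 and HSPA8 are 3921, 4598, 4404 and 2264 nt long. With the length trend removed their log2 fold changes were -1.62, -1.39, -0.92 and 1.06. Both pos libraries were above every neg library for 17 of the 31 genes and below for 3, where 26.7% and 29.3% of all tested genes were.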
